A study of Mus musculus with 3 samples.

Results

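The 35 type I interferon-stimulated genes described here are a list matched by symbol to the genes of each library, 35 of 31053 listed in the CD and HFD libraries and 34 of 32285 in the WD library, where Mx1 was not analysed. The list joins the ISG15 system (Isg15, Usp18, Herc6), the IFIT family (Ifit1, Ifit2, Ifit3, Ifit3b), the OAS family with PKR (Oas1a, Oas2, Oas3, Oasl1, Oasl2, Eif2ak2), sensors of foreign nucleic acid (Ifih1, Dhx58, Zbp1), transcription factors (Stat2, Irf9, Irf7, Irf1) and the chemokines Cxcl9 and Cxcl10. It also holds further effectors (Bst2, Ifitm3, Mx1, Rsad2, Cmpk2, Isg20, Trim30a) and other responsive genes (Xaf1, Parp14, Ifi35, Ifi47, Ly6a, Rtp4). The study read single-cell transcriptomes of heart cells sorted as CD45, F4/80 and CD11b positive, a gate for cardiac macrophages. The wild type mice, aged 32 to 34 weeks, were on one of 3 diets with 1 library each: control (CD), high fat (HFD) and Western (WD). How many mice a library pools, what the diets held and how long they lasted was not found in the sources used here. With 1 library per diet no difference between diets was tested, and the intervals below are 95% intervals that cover counting error only.

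Type I interferons bind a receptor of the subunits IFNAR1 and IFNAR2, whose kinases JAK1 and TYK2 phosphorylate STAT2. With IRF9 it forms part of the complex ISGF3, which binds the interferon-stimulated response element (ISRE) in the promoters of its target genes, while the response to interferon gamma runs through another element, the gamma-activated site (GAS). In the heart, macrophages with a high level of such genes are known from myocardial infarction.

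Cells were kept with at least 1000 UMIs (unique molecular identifiers, which count each captured transcript once), 200 genes and at most 10% mitochondrial UMIs, which left 2679 CD, 2717 HFD and 4775 WD cells. Cells with at least 0.3% of their UMIs from the complement genes C1qa, C1qb and C1qc, called C1q cells here, numbered 2293 in CD, 2002 in HFD and 3717 in WD. All 12 macrophage markers, among them Csf1r, Mrc1 and Cd68, were present in the C1q cells of each library, at a summed 49797, 54627 and 24674 CPM (UMIs scaled to a total of 1e6) in CD, HFD and WD against 4633, 3407 and 4409 CPM in the remaining cells. Other cells' markers were present in the C1q cells too, endothelial ones at 517 to 675 CPM and neutrophil ones at 192 to 1216 CPM. The WD library stands apart from the other 2: its files carry software version 7.2.0 against 3.0.1, its C1q cells had a median of 12242 UMIs against 4319 in CD and 2954 in HFD, the mitochondrial limit removed 26.1% of its cells against 6.33% and 11.9%, and 92 (1.34%) of its 6885 barcodes were among those listed for CD. The labels name the v2 kit for all 3 libraries, which that overlap leaves in doubt for WD. In WD, diet, software version, depth and any difference in kit cannot be told apart, so no comparison with WD isolates diet.

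Promoter stretches with a match to the ISRE core are shown for 8 members that carry the results below, 5 of the 7 members with the highest ratios in interferon-high cells (Isg15, Ifit1, Ifit3, Ifit3b, Rsad2), a chemokine that separated the libraries and cell classes (Cxcl10), an abundant member (Bst2) and an OAS gene (Oas1a). The other 2 of those 7, Ifit2 and Cmpk2, had no match in the window and are not shown. The sequences come from RefSeq on GRCm38.p6, run 5′ to 3′ on the strand of the gene and lie before its annotated start, with capitals at each match to GAAANNGAAA or, on the other strand, TTTCNNTTTC (overlapping matches joined) and up to 15 bases on each side, ending at the last base before the start. They are Isg15 (chr4:156200860-156200911, minus strand), Ifit1 (chr19:34640770-34640828, plus), Ifit3 (chr19:34583358-34583431, plus), Ifit3b (chr19:34607754-34607827, plus), Rsad2 (chr12:26456548-26456587, minus), Cxcl10 (chr5:92349078-92349117, minus), Oas1a (chr5:120907526-120907560, minus) and Bst2 (chr8:71537572-71537617, minus).
Isg15: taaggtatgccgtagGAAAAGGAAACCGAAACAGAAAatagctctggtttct
Ifit1: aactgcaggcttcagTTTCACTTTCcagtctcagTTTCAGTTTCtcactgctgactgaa
Ifit3: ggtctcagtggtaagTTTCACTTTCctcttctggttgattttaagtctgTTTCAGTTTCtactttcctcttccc
Ifit3b: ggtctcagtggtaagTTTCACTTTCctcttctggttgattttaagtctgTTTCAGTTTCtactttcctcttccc
Rsad2: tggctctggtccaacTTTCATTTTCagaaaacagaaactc
Cxcl10: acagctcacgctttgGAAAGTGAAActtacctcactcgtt
Oas1a: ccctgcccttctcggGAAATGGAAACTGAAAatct
Bst2: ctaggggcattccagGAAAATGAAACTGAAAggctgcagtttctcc

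The stretches of Ifit3 and Ifit3b, neighbouring copies of one gene on chromosome 19, are the same letter for letter, and Isg15 has 3 overlapping matches in a row. Promoter windows, 250 bases before to 50 after each start, were at hand for 27 of the 35 members, and 14 of them (51.9%) held the ISRE core, against 3.99% of the 27025 genes with such a window. The GAS core TTCNNNGAA, searched on both strands, was in 8 members (29.6%) and 9.55% of genes, and in Bst2 and Ifitm3 a GAS match overlapped an ISRE match. A match is a description of letters, not of a bound site, and members without one, such as Ifit2, Cmpk2 and Irf7, may have it outside the window or in letters the search did not allow. Members with the core had a lower median of the lowest ratio in interferon-high cells (4.66-fold) than the matched members without it (11.9-fold). Usp18, Oas2, Dhx58, Zbp1, Mx1, Parp14, Ly6a and Rtp4 had no window.

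Summed over the C1q cells, the members held 3709 CPM in CD, 3565 CPM in HFD and 2994 CPM in WD, and most of these UMIs came from 1 gene. Ifitm3, a membrane protein that blocks the entry of enveloped viruses, stood at 2224, 2078 and 1128 CPM in the 3 libraries (CD, HFD, WD) and made up 59.97%, 58.3% and 37.7% of the members' UMIs. Bst2 (tetherin), which holds budding viruses at the cell surface, followed with 317, 392 and 205 CPM. Ifitm3, Bst2, Ly6a and Irf1 are widely expressed without interferon, and the remaining 30 members measured in every library are called core members. In CD the core members summed to 1084 CPM (1065 to 1104). The sum was 1019 CPM (995 to 1044) for HFD and 1331 CPM (1322 to 1340) for WD. CPM here are shares of captured 3′ ends and are not divided by gene length. In WD they are not free of gene length, since ratios of WD to CD ran with intron length (below).

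**Figure D1:**
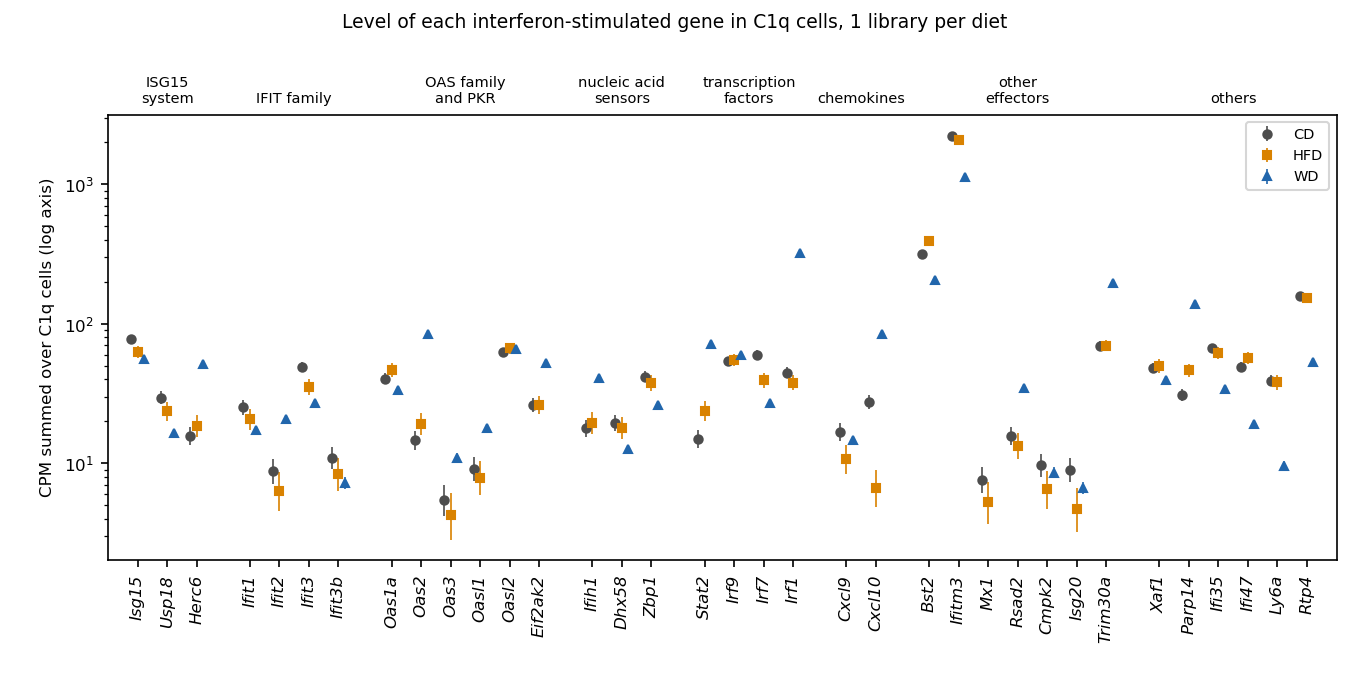
Level of each member in C1q cells in CPM (log axis) with 95% Poisson intervals, 1 point per library, grouped by role. Ifitm3 and Bst2 lie above nearly all other members, and in WD Irf1 (321 CPM) lies far above CD (44.6) and HFD (37.9).

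Among the antiviral members, Isg15, a ubiquitin-like protein joined to other proteins after interferon, stood at 78.1, 62.4 and 55.7 CPM in CD, HFD and WD. Its deconjugating enzyme and brake on the receptor, Usp18, stood at 29.6, 23.6 and 16.5 CPM, and Herc6, its ligase in mice, at 15.6, 18.5 and 51.7 CPM. Thus CD was highest for the first 2 of these and WD for the third. The 4 IFIT genes, whose proteins bind foreign RNA, lay between 6.37 and 49.3 CPM, with Ifit3 the highest of them in every library (49.3, 35.5 and 27.1 CPM). Ifit3 and Ifit3b share 51.2% and 45.0% of their 50-base exon sequences with each other or other genes, and Oas1a 57.6% (most with Oas1g), so their counts are uncertain as single genes. The OAS genes make the messenger 2-5A that activates RNase L, and with PKR (Eif2ak2), which halts translation on double-stranded RNA, they summed to 158.5, 170.8 and 265.7 CPM. The radical SAM enzyme viperin (Rsad2), which makes a chain-terminating nucleotide, stood at 15.7, 13.3 and 34.7 CPM, and its neighbour on chromosome 12, the nucleotide kinase Cmpk2, at 9.66, 6.52 and 8.59 CPM. Mx1, a GTPase that blocks viral replication, stood at 7.64 CPM in CD and 5.31 in HFD.

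Among the transcription factors, Irf9 lay at like levels in the 3 libraries, while Irf1 and Stat2 were highest in WD. Irf9 and Stat2, the partners of ISGF3, stood at 53.7, 55.0 and 59.4 CPM and at 15.01, 23.8 and 71.2 CPM in CD, HFD and WD. Irf7, the amplifier of interferon production, stood at 59.9, 39.3 and 26.9 CPM, highest in CD and lowest in WD, with no interval of the 3 ratios reaching 1. Irf1, which interferon gamma also induces, stood at 44.6, 37.9 and 321 CPM. The T cell attracting chemokines Cxcl9 and Cxcl10 stood at 16.9, 10.8 and 14.8 CPM and at 27.7, 6.67 and 85.0 CPM. The order of the libraries therefore differed between single members of 1 role.

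The CD and HFD files also list near-empty barcodes of at most 100 UMIs, which hold RNA free in the suspension. Core members made up 421 CPM there in CD and 517 CPM in HFD, and C1q cells exceeded this 2.58-fold (2.43 to 2.73) and 1.97-fold (1.88 to 2.07). In CD 33 of 34 members exceeded the near-empty level with an interval above 1, and in HFD 26 of 34. Ly6a lay below it in both, at 87.5 and 165 CPM in near-empty barcodes against 39.2 and 38.0 CPM in C1q cells. In HFD the intervals of 7 further members crossed 1: Cmpk2 (0.904), Cxcl9 (1.08), Rsad2 (1.08), Cxcl10 (1.51, 0.863 to 2.74), Ifit3b (1.63), Oas3 (1.66, 0.801 to 3.69) and Oasl1 (1.70). The level of these 7 in HFD C1q cells was not above that of free RNA beyond counting error, and their later values over HFD C1q cells carry this limit. No such barcodes were analysed for WD.

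The core members were spread unevenly over single cells. Each cell was thinned to 1000 UMIs, and no cell was too shallow for it. After thinning, 48.5% of CD, 50.9% of HFD and 38.4% of WD C1q cells had no core UMI, while the 5% of cells with the most held 32.7%, 33.9% and 27.4% of all core UMIs. The variance of the core count was 3.32, 3.96 and 3.02 times its mean, where counting alone would give a ratio near 1. Single genes were found in few cells: 25 (CD), 26 (HFD) and 24 (WD) of 34 members had a UMI in under 5% of thinned C1q cells. Isg15 had one in 5.80% (4.88 to 6.84), 4.75% (3.86 to 5.77) and 3.61% (3.03 to 4.26) of cells, or 17.9%, 11.7% and 26.4% before thinning. Ifitm3 had one in 76.7%, 74.8% and 57.4%. In CD the ratio of variance to mean was highest among the members for Cxcl9 (6.66) and Cxcl10 (3.64).

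**Figure D2:**
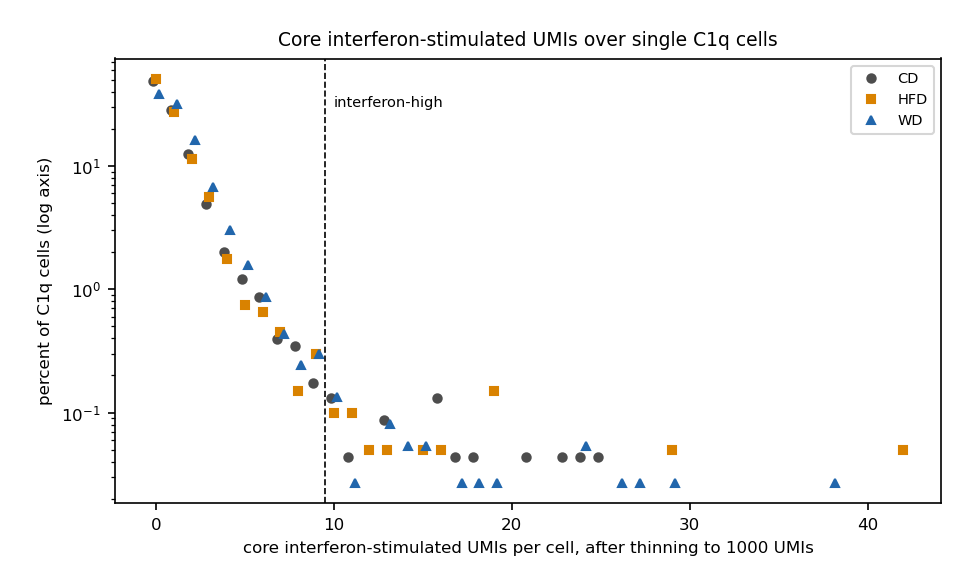
Share of C1q cells (log axis) by the number of core UMIs after thinning to 1000 UMIs, 1 colour per library. The 3 libraries fall off alike to about 10 UMIs, and beyond the dashed line 15 CD, 13 HFD and 22 WD cells reach up to 25, 42 and 38 UMIs.

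Cells with at least 10 core UMIs of 1000 were called interferon-high, a range of the score and not a cell type. They made up 0.654% of C1q cells in CD (15 cells, 0.367 to 1.08), 0.649% in HFD (13 cells, 0.346 to 1.11) and 0.592% in WD (22 cells, 0.371 to 0.895), and each interval contains the other libraries' shares. These cells held 10.1%, 11.3% and 8.04% of all core UMIs. Near the threshold, 12 CD, 9 HFD and 20 WD cells lay 1 or 2 UMIs under it and 4, 4 and 6 cells at it or 1 above, so the share depends on where the line is drawn. Their median depth was 4129 UMIs in CD, 3327 in HFD and 16209 in WD, against 4320, 2948 and 12233 UMIs in the other C1q cells.

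Macrophage markers stood at 41626, 51248 and 23429 CPM in the interferon-high C1q cells and at 49856, 54652 and 24683 CPM in the other C1q cells. Resident macrophage markers were lower in the interferon-high cells of each library (1550, 1639 and 1301 CPM against 2022, 1804 and 2031 CPM). In WD, classical monocyte markers stood at 1258 CPM (6 of 6 detected) against 214 CPM and neutrophil markers at 3161 CPM (6 of 6) against 1203 CPM. Classical monocyte markers were lower in the interferon-high cells of CD (111 against 376 CPM) and HFD (102 against 216 CPM). Neutrophil markers were lower there in HFD (143 against 192 CPM). In HFD, endothelial markers stood at 2089 CPM (5 of 7 detected, Kdr and Flt1 at 0) against 588 CPM, and in CD neutrophil markers at 1242 CPM (5 of 6, Mmp9 at 0) against 846 CPM. The part of these cells in the members' levels was not tested. Ccr2, the receptor of recruited monocytes, was found after thinning in 1 of 15 CD, 1 of 13 HFD and 5 of 22 WD interferon-high cells. In WD this was a share of 22.7% (7.82 to 45.4) against 5.30% (4.60 to 6.08) of the other C1q cells. The share was lower than in the other C1q cells in CD (6.67% against 13.1%) and HFD (7.69% against 10.8%), where both intervals contain the latter share. Lyve1, a marker of resident macrophages, was found in 4 of 15, 2 of 13 and 4 of 22. These shares were 26.7%, 15.4% and 18.2% (in WD 5.19 to 40.3), against 25.2%, 21.2% and 39.2% of the other C1q cells.

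To see which members moved together, each gene was left out of the score, the interferon-high cells were chosen by the others, and its level was compared between them and the other C1q cells. The IFIT genes stood out most. Ifit2 was 74.9-fold (48.2 to 115) higher in CD, 117-fold (60.3 to 225) in HFD and 77.4-fold (68.8 to 87.1) in WD, from 5.75, 3.51 and 13.5 CPM in the other cells. Ifit3 was 49.99-fold, 83.4-fold and 68.95-fold higher and Ifit1 49.4-fold, 47.3-fold and 69.6-fold, and in the same way Rsad2 30.3-fold, 77.1-fold and 59.6-fold. Ifit3 remained in the score when Ifit3b was left out and the reverse, and the copies share sequence. Isg15 was 27.7-fold (22.8 to 33.5), 42.6-fold (33.4 to 53.9) and 24.6-fold (22.1 to 27.3) higher, and was found in 92.3%, 100% and 94.1% of the cells so chosen.

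The members ranged widely around these values. Of 34, 9 were at least 20-fold higher in all 3 libraries, 14 at least 10-fold, 20 at least 5-fold and 32 at least 2-fold, and 30 had intervals above 1 in every library. The remaining 2 below 2-fold were transcription factors. Irf9 was 1.84-fold (0.792 to 3.65), 1.495-fold (0.405 to 3.86) and 1.12-fold (0.741 to 1.62) the level of the other cells. Irf1 was 2.79-fold (1.33 to 5.18) and 2.74-fold (0.881 to 6.48) in CD and HFD and 0.863-fold (0.714 to 1.04) in WD, where it was at 277 CPM in interferon-high and 321 CPM in other cells. Its high level in WD C1q cells thus lay outside the interferon-high cells: after thinning 22.5% of WD C1q cells held an Irf1 UMI, against 4.41% in CD and 3.796% in HFD. Ifitm3 was 2.10-fold, 2.88-fold and 2.61-fold higher, and Oas2 3.43-fold, 2.15-fold and 2.43-fold, with an interval across 1 in CD and HFD.

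Cxcl10 behaved differently in each library. In HFD it was 143-fold (75.7 to 271) higher in interferon-high cells, which held 22 of its 44 UMIs. In WD it was 26.3-fold (24.0 to 28.9) higher, with 9.95% of its UMIs there. In CD it was 3.32-fold (1.21 to 7.31) higher, and only 1.91% of its 315 UMIs lay in these cells. Nearly all Cxcl10 of the CD C1q cells thus lay outside the interferon-high range.

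**Figure D3:**
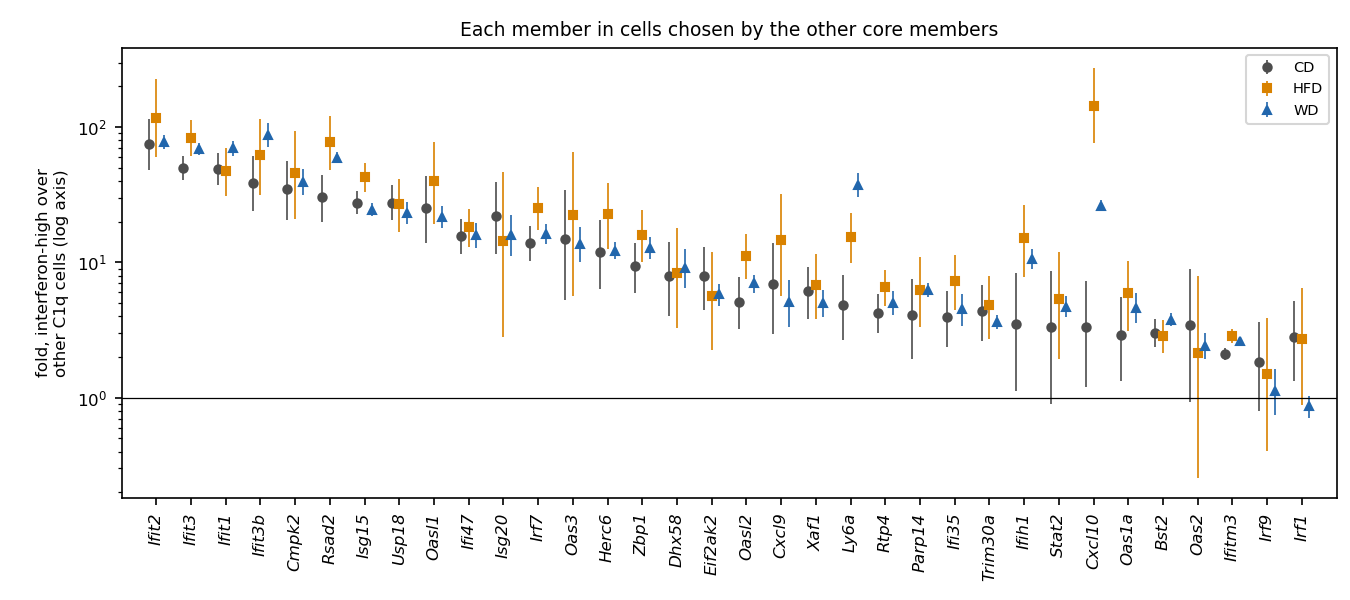
Level of each member in interferon-high over other C1q cells (log axis) with 95% intervals for counting error, each gene judged in cells chosen by the other core members, ordered by the lowest of the 3 libraries. The IFIT genes lead at 38.9-fold or more in each library, Irf9 and Irf1 close the order near 1, and the Cxcl10 points (3.32, 143 and 26.3) are far apart.

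By the same measure, the 10 genes outside the list most like the members were chosen among 337 with at least 20 UMIs in the interferon-high cells of each library. Among them were the interferon-inducible GTPases Iigp1 (35.6-fold, 21.0-fold and 26.3-fold in CD, HFD and WD), Gbp2 (29.2-fold, 23.6-fold and 11.4-fold) and Igtp, the PYHIN genes Ifi206, Ifi209 and Ifi211, and Ms4a4c, Phf11d and Phf11b. These ratios are what chose the genes and are given as a description. The receptor subunit Ifnar1 was 1.18-fold, 0.499-fold and 0.891-fold, with intervals across 1. Of the type I interferons only Ifna1, Ifna2, Ifna4 and Ifnb1 were looked up, and their UMIs were almost lacking. Ifna1 and Ifna4 had 0 in every library, Ifna2 had 1 in WD, and Ifnb1 had 0 in CD and HFD and 17 in WD C1q cells. Of those 17, 3 were in the 22 interferon-high cells, a ratio of 30.2-fold (5.56 to 108) over the other C1q cells. A count of 0 allows up to 0.263 CPM in CD and 0.455 CPM in HFD C1q cells, counting 3 UMIs.

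Between HFD and CD most members differed by less than 1.5-fold in C1q cells, and the chemokine Cxcl10 differed most. A gene was counted as higher or lower from 1.5-fold on, with at least 20 UMIs over both libraries. By this rule 2 of 34 members were higher in HFD and 4 were lower, beside 6.74% and 8.41% of all genes tested, with a median log2 ratio of -0.12 for the members and -0.03 for all 11239 genes. The higher ones were Stat2 (15.01 to 23.8 CPM, 1.59-fold, 1.27 to 1.98) and Parp14, an ADP-ribosyltransferase (30.9 to 46.4 CPM, 1.501-fold, 1.28 to 1.75). Lower were Cxcl10 (27.7 to 6.67 CPM, 4.15-fold, 3.02 to 5.82), the exonuclease Isg20 (8.96 to 4.70 CPM, 1.91-fold), Cxcl9 (16.9 to 10.8 CPM, 1.57-fold) and Irf7 (59.9 to 39.3 CPM, 1.53-fold, 1.32 to 1.77). The HFD levels of Cxcl10 and Cxcl9 were not above free RNA beyond counting error. Without the interferon-high cells 8 members were lower and 1 higher, with the log2 ratio of Cxcl10 at -2.87 and that of Cxcl9 at 0.09. With all C1q cells the shares called are close to those of all genes. No share of all genes is given for the setting without the interferon-high cells, so its counts of members cannot be called particular to the members.

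Split by class, the HFD cells with Lyve1 and no Ccr2 UMI had 9 members lower and 1 higher than their CD counterparts, beside 8.88% and 8.33% of all 9774 genes. The 9 were Ifit1 (29.8 to 16.5 CPM), Ifit2 (11.2 to 5.24), Ifit3 (54.0 to 27.0), Irf7 (57.9 to 29.4), Rsad2, Cmpk2, Oas3, Cxcl9 and Cxcl10, and Ly6a was the higher one, at levels under those of the near-empty barcodes in both libraries. Rsad2, Cmpk2, Oas3, Cxcl9 and Cxcl10 were not above free RNA over all HFD C1q cells. Oas3 rested on 6 UMIs in HFD against 19 in CD, with an interval across 1. In Ccr2 cells without Lyve1, 6 members were lower (13.9% of genes) and 2 higher (6.45%), among them Cxcl9, which was 6.08-fold higher in HFD (51 UMIs against 14). Both classes were set on UMIs before thinning, so which cells enter them can depend on depth, which differed between the libraries. Over all C1q cells the summed core level was 1.06-fold (1.03 to 1.10) lower in HFD. The genes listed under interferon gamma went another way, with 7 of 15 higher and 0 lower and a median of 0.58: Gbp4 (3.60-fold), Gbp3 (2.27-fold), Ciita (2.13-fold), Gbp5, Iigp1, Irgm2 and Igtp. Iigp1 and Igtp were also among the genes most like the members in interferon-high cells, so this list is not separate from the members. Of 8 genes of ligand and receptor signalling, Ifnar1 was among the higher (1.58-fold) and the feedback inhibitors Socs1 and Socs3 were lower (2.90-fold and 3.08-fold), and none of 12 sensors and adaptors passed 1.5-fold.

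In WD against CD, members went both ways, and the ratios of all genes ran with the length of their introns. Of 34 members 13 were higher and 12 lower in WD C1q cells, beside 47.4% and 26.8% of all 14467 genes tested, with a median log2 ratio of -0.23 for the members and 0.30 for all genes. Genes past a higher UMI minimum, set over the C1q cells of the 3 libraries, were put in 10 groups by summed intron length (GENCODE vM21). The median log2 ratio lay at -0.73 in the group of shortest introns and 2.60 in that of the longest. The same groups lay between -0.08 and 0.02 in HFD against CD, 2 libraries of 1 software version. Less the median of its intron group, 12 members were higher and 5 lower in WD against CD, with a median of 0.27 for the members. Beside them stood 32.3% and 27.3% of the 11914 genes with an intron group, fewer than the 14467 because of that minimum and of genes without an intron length. Whether intronic reads were counted was not found in the sources used here, and its part was not tested.

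Past 1.5-fold on both scales were 10 members in the higher and 5 in the lower direction, beside 26.7% and 17.3% of genes. They were led by Irf1, with a log2 ratio of 2.85 in WD against CD and 3.73 less its intron group (7.19-fold, 6.59 to 7.87, before centring). Oas2 (14.6 to 84.8 CPM) had 2.54 and 2.67, Stat2 (15.01 to 71.2 CPM) 2.25 and 2.38, and Cxcl10 (27.7 to 85.0 CPM) 1.62 and 2.35. Smaller ratios were those of Parp14 (2.17 and 1.51), Rsad2 (1.14 and 1.45), Ifit2 (1.24 and 0.98), Oas3 (1.00 and 1.14), Oasl1 (0.98 and 1.29) and Eif2ak2 (1.01 and 0.75). On the lower side Rtp4, a receptor chaperone, had -1.56 and -3.24 (157 to 53.3 CPM), and Ly6a, the stem cell antigen Sca-1, -2.04 and -1.15 (39.2 to 9.54 CPM). The centred value of Rtp4 depends on the 91801 intron bases annotated for it, and whether its reads come from that whole span was not tested. Of its 50-base exon sequences 13.65% occur in other genes, most in Gm45338. The GTPase Ifi47 had -1.35 and -1.22, Usp18 -0.85 and -1.11 and Ifi35 -0.98 and -0.67.

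Other members passed 1.5-fold by CPM alone. Herc6 (1.73), Trim30a (1.499) and Ifih1 (1.20), the RNA sensor MDA5, lay at 0.05, 0.41 and 0.12 less their intron group. Lower by CPM alone were Irf7 (-1.16 and -0.43), Ifitm3 (-0.98 and -0.25), Zbp1 (-0.69 and -0.38) and Dhx58 (-0.63 and -0.06). Ifit3 (-0.87), Ifit3b (-0.59) and Bst2 (-0.63) were lower by CPM and at 0.02, 0.30 and 0.26 after centring, so for these 3 the scale set the sign. Isg15 was at -0.49 by CPM and 0.24 after centring and Ifit1 at -0.54 and 0.04, neither past 1.5-fold. Irf9 (0.15 and 0.88) and Cxcl9 (-0.19 and 0.70) were higher after centring alone.

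Of the other genes of the pathway, 4 of 8 of ligand and receptor signalling were higher in WD than in CD by CPM (Ifnar1, Jak1, Stat3, Socs3) and 1 lower (Socs1). Among sensors and adaptors 6 of 13 were higher and 1, Irf8, lower, and among interferon gamma genes 6 of 16 were higher and 4 lower. Gbp5 went from 3.86 to 68.7 CPM and Tbk1 from 26.95 to 128.7 CPM, against 47.4% of all genes higher by the same rule.

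The comparison with HFD shares the WD library with that of CD. In it 13 members were higher and 6 lower in WD (47.9% and 25.9% of 14412 genes), or 15 and 4 less the intron group medians (32.5% and 26.0% of 11914 genes). There Irf1 was 8.47-fold (7.47 to 9.63), Cxcl10 12.75-fold (9.48 to 17.6) and Stat2 2.99-fold higher, and Rtp4 2.87-fold lower.

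**Figure D4:**
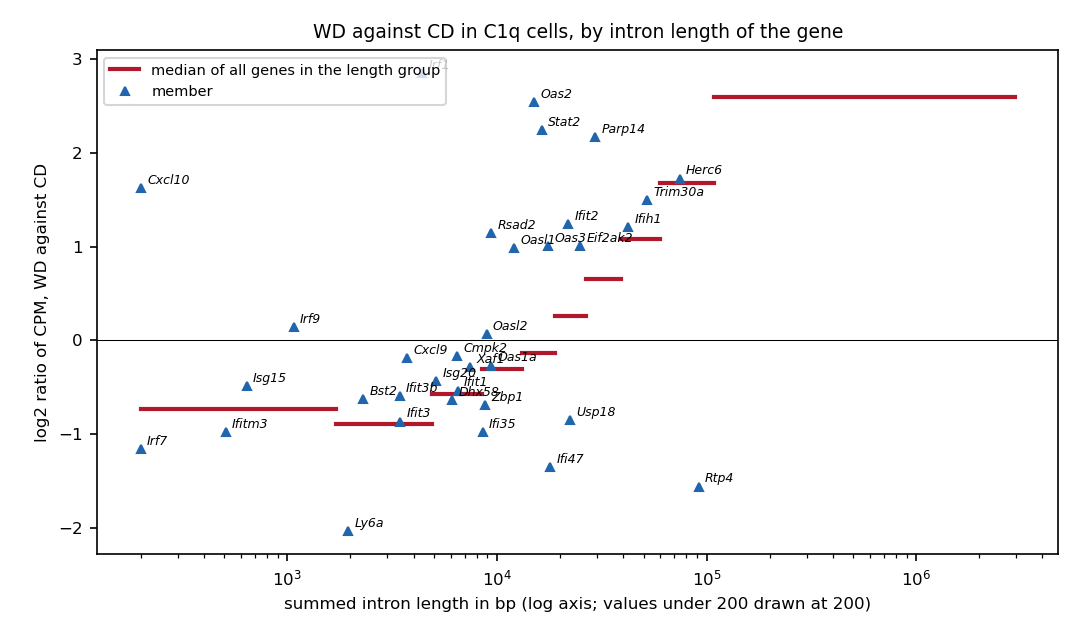
Log2 ratio of WD against CD for each member (triangles) by the summed intron length of the gene (log axis), with bars for the median of all genes in each of 10 groups of intron length. The bars lie at -0.73 and -0.89 for the 2 groups of shortest introns and climb to 2.60, and Irf1, Cxcl10, Oas2 and Stat2 lie well above the bar of their length while Rtp4 and Ly6a lie below.

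In WD the cells with Ccr2 and no Lyve1 UMI had 18 members higher and 4 lower than in CD, beside 43.4% and 28.4% of 10493 genes, with medians of 0.77 and 0.25. All 4 IFIT genes were among the 18, as Ifit1 went from 20.9 to 36.9 CPM, Ifit2 from 6.84 to 47.7, Ifit3 from 34.2 to 65.3 and Ifit3b from 6.84 to 15.5. In cells with Lyve1 and no Ccr2 UMI 10 were higher and 13 lower (47.1% and 27.0% of 13177 genes). Against HFD, 20 were higher and 5 lower in the Ccr2 cells (46.1% and 25.2% of 10218 genes) and 14 and 10 in the Lyve1 cells (46.9% and 27.2% of 13140 genes). Both classes were set on UMIs before thinning, so which cells enter them can depend on depth. The Ccr2 class was 7.88% of C1q cells in WD (median 13357 UMIs), 19.2% in CD (4404.5) and 17.3% in HFD (3649). The part of this in the ratios was not tested. Of the WD Ccr2 cells 6 of 293 (2.05%, 0.755 to 4.404) were interferon-high and held 26.9% of their core UMIs, against 3 of 440 with 9.28% in CD and 1 of 346 with 3.10% in HFD. In the Lyve1 cells 5 of 932, 3 of 697 and 7 of 2211 were interferon-high in CD, HFD and WD. The other interferon-high C1q cells lay outside these 2 classes. Cells with neither gene held 7 of 15 in CD, 9 of 13 in HFD and 2 of 22 in WD, and cells with both genes held 0, 0 and 7. Cells with neither gene were 31.5%, 45.25% and 18.6% of C1q cells, and those with both 8.68%, 2.65% and 14.0%.

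Ccr2 marks cardiac macrophages replaced by blood monocytes and Lyve1 those that maintain themselves in the tissue. The members were compared between C1q cells with at least 1 UMI of Ccr2 and none of Lyve1 (440 CD, 346 HFD and 293 WD cells) and cells with at least 1 of Lyve1 and none of Ccr2 (932, 697 and 2211 cells). Both classes come from each library, so edgeR's quasi-likelihood test could be run on the 6 sums with the library as a block, with Benjamini-Hochberg adjustment over all genes. Whether separate animals stand behind the libraries is not stated, and the p-values measure the spread of the class difference over these 3 libraries. Monocyte-derived markers such as H2-Aa and Cd74 stood at 80593, 106748 and 40200 CPM in the Ccr2 class and at 14422, 24430 and 12280 CPM in the Lyve1 class of CD, HFD and WD. Classical monocyte markers, a list that holds Ccr2, stood at 964, 896 and 553 CPM against 29.0, 4.03 and 38.7 CPM. Their part in the members' differences was not tested.

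Of 34 members tested 10 were higher in the Ccr2 class and 2 lower, beside 11.4% and 11.6% of all 10042 genes, with a median log2 fold change of 0.41 for the members and 0.00 for all genes. Of the members Cxcl10 had the smallest adjusted p in edgeR's test. It stood at 41.9 CPM in the Ccr2 class against 9.08 in the Lyve1 class of CD, at 4.99 against 1.61 in HFD and at 155 against 67.4 in WD, a log2 fold change of 1.52 ± 0.19 (SE, adjusted p = 6.24e-05, edgeR). Oas3, the OAS enzyme of long double-stranded RNA, stood at 10.3 against 4.11, 5.70 against 2.42 and 18.9 against 8.29 CPM (1.26 ± 0.23, adjusted p = 0.00139, edgeR). For both genes the Ccr2 class was the higher in each of the 3 libraries, by like ratios for Oas3. In HFD this rested on 7 against 4 UMIs for Cxcl10 and 8 against 6 for Oas3, with both counting intervals across 1.

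Ly6a rose by 1.81 ± 0.37 (adjusted p = 0.00276), from 20.5 to 35.5 CPM in CD, 31.4 to 47.0 in HFD and 4.79 to 45.0 in WD, where the ratio was largest. The CD and HFD levels of both classes lie under the 87.5 and 165 CPM of the near-empty barcodes and are thus not above free RNA. Irf7 rose by 0.68 ± 0.16 (adjusted p = 0.00655), from 57.9 to 61.1, 29.4 to 49.9 and 23.2 to 46.4 CPM. Usp18 rose by 0.84, Herc6 by 0.53, Oas1a by 0.49 and Ifih1 by 0.57, each higher in the Ccr2 class of all 3 libraries. In CD the counting interval of each crossed 1, as did those of Usp18 and Herc6 in HFD. Ifit2 rose by 1.22 ± 0.37 (adjusted p = 0.0309), with CD the other way (6.84 against 11.2 CPM), and Zbp1, the sensor of Z-form nucleic acid, by 0.44 (adjusted p = 0.0466), with HFD the other way. Ifitm3 fell by 0.52 on the log2 scale (adjusted p = 0.00649), with 1535 against 2742 CPM in CD, 1596 against 2701 in HFD and 1017 against 1198 in WD. Oas2 fell by 0.57 (adjusted p = 0.00966), with 12.4 against 16.2, 11.4 against 23.0 and 63.9 against 96.7 CPM, so 2 OAS genes that neighbour each other on chromosome 5, Oas2 and Oas3, went opposite ways.

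**Figure D5:**
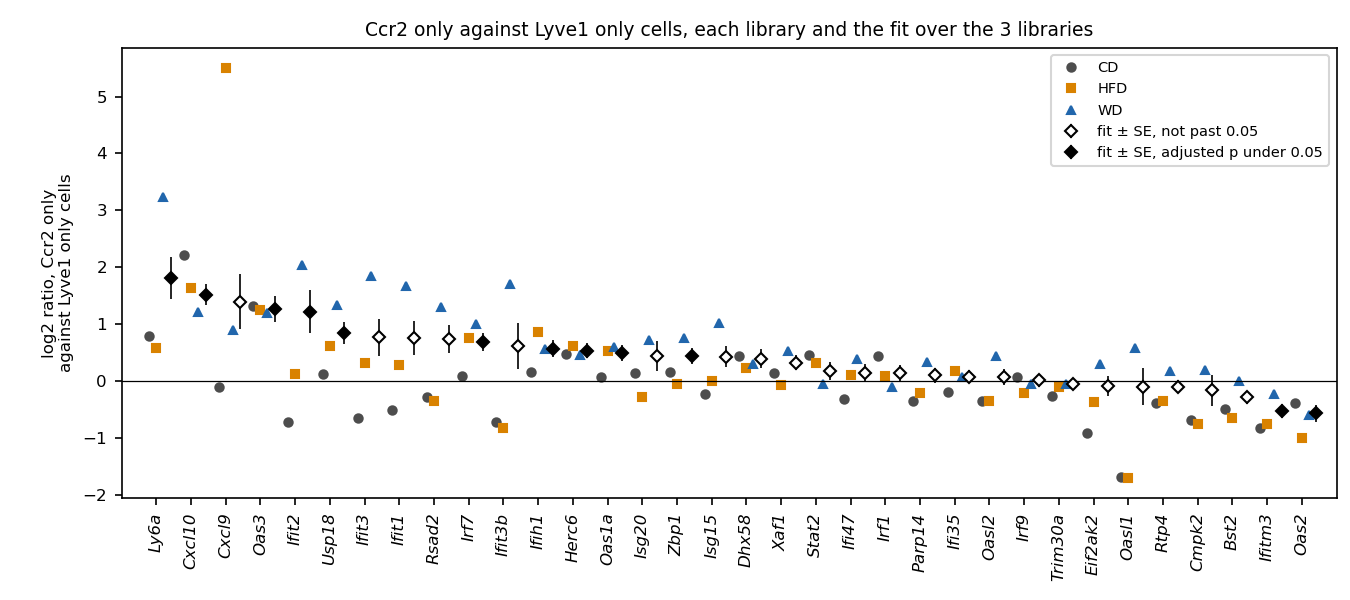
Log2 ratio of Ccr2 against Lyve1 cells for each member, 1 point per library, with the edgeR fit ± SE as diamonds, filled where the adjusted p is under 0.05. Cxcl10 and Oas3 are high in all 3 libraries, on few UMIs in HFD, while the IFIT genes are high in WD and below 0 in CD.

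Isg15 and the IFIT genes other than Ifit2 did not pass the test, and their ratios had opposite signs in CD and WD. Ifit3 stood at 34.2 CPM in the Ccr2 against 54.0 in the Lyve1 class of CD, at 33.5 against 27.0 in HFD and at 65.3 against 18.2 in WD (adjusted p = 0.12). Ifit1 stood at 20.9 against 29.8 CPM (CD), 19.95 against 16.5 (HFD) and 36.9 against 11.6 (WD). Isg15 had a ratio of 0.851 in CD, 1.00 in HFD and 2.03 in WD. Summed, the core members were at a ratio of 0.908 (0.864 to 0.954) in CD, 1.03 (0.963 to 1.10) in HFD and 1.40 (1.36 to 1.43) in WD.

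The calls rest on different libraries and cells. Without WD 10 members passed, among them 6 of the 12, and the log2 value of Ifit2 was -0.36 (adjusted p = 0.569), while Oasl1 (-1.57, adjusted p = 0.00259), Bst2, Eif2ak2 and Cxcl9 also passed. Ifih1, Oas1a, Oas2, Usp18 and Zbp1 lost their calls without WD, and Ifih1 and Oas1a also without HFD. Without the interferon-high cells, an alternative added after seeing the data, 8 members passed and Cxcl10 (0.84, adjusted p = 0.0764), Herc6, Ifih1, Ifit2 and Zbp1 did not. With classes taken from thinned cells 16 passed, but Herc6 and Oas3 did not. Of all genes, 24.1% were called without WD, 23.1% without the interferon-high cells and 18.8% in thinned classes. DESeq2 called 5 members (15.1% of all genes, against 23.1% in edgeR) and not Herc6, Ifih1, Ifit2, Oas1a, Oas2, Usp18 or Zbp1. At a C1q level of 1% Ifit2, Oas2, Usp18 and Zbp1 were not called, and with the highest doublet scores removed Zbp1 was not. Without the library block edgeR called 0 members and 0 of all genes, and 0 members had an unadjusted p under 0.05, against 20 with the block. Ifitm3, Irf7 and Ly6a, the last with the free RNA level given above, passed without each library in turn, without the interferon-high cells, in thinned classes and with DESeq2.

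Other genes of the pathway differed between the classes too. Of 15 interferon gamma genes tested 9 were higher in the Ccr2 class and 3 lower, of 8 genes of ligand and receptor signalling 3 higher and 1 lower, and of 12 sensors and adaptors 3 higher and 1 lower. The class II activator Ciita (2.53 ± 0.12, adjusted p = 1.67e-08) and Gbp4 (2.58) rose, as did Ifnar1 (0.34) and the STING gene Tmem173 (0.49). Iigp1, the gene most like the members in the interferon-high cells, fell by 1.26 (adjusted p = 0.000362), as did Tlr7, the endosomal sensor of single-stranded RNA (by 0.82), and Jak1 (by 0.43).

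Cells below the C1q level, 386 in CD, 715 in HFD and 1058 in WD, had an interferon-high share of 1.30% (5 cells, 0.422 to 2.997), 1.82% (13 cells, 0.972 to 3.09) and 2.46% (26 cells, 1.61 to 3.58). The C1q shares, 0.654%, 0.649% and 0.592%, lie below these intervals in HFD and WD and inside that of CD. Core members summed to 1279, 1258 and 1488 CPM there, 1.18-fold (1.13 to 1.24), 1.23-fold (1.18 to 1.29) and 1.12-fold (1.10 to 1.14) above the C1q cells. In the same test over 12146 genes 1 member was higher and 1 lower, beside 4.27% and 2.87% of all genes, and 17 members had an unadjusted p under 0.05. Ly6a rose by 4.03 ± 0.64 (adjusted p = 0.0419, edgeR), from 39.2 to 1096 CPM in CD, 38.0 to 1501 in HFD and 9.54 to 58.2 in WD. Oas2 fell by 1.008 ± 0.16 (adjusted p = 0.0427), from 14.6 to 9.73, 19.3 to 10.1 and 84.8 to 49.8 CPM.

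In edgeR's test these calls were lost with the highest doublet scores removed (adjusted p of 0.0551 for Ly6a and 0.0511 for Oas2), at a C1q level of 1% (0.141 and 0.172), without CD (0.257 and 0.265) and without HFD (0.135 and 0.186). Without WD 20 members passed, 10 in each direction, and DESeq2 called 9 with all libraries. The share of all genes called moved too, from 7.14% to 33.5% without WD and 17.5% with DESeq2. It was 5.73% with the highest doublet scores removed and 3.29% at a C1q level of 1%. Without CD and without HFD 0 of all genes were called, so the lost calls there are not particular to these members. Without WD, Rsad2 was at 2.53 (adjusted p = 2.92e-05), Ifit1 at 1.04 and Zbp1 at -1.31. The cells below the level are of different kinds in each library. By the marker list with the largest share of a cell's UMIs, endothelial markers led 199 cells in CD and 489 in HFD but 17 in WD.

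The endothelial-led cells held 1470 of the 2103 core UMIs below the C1q level in CD and 1974 of 2620 in HFD. Their core members summed to 2385 CPM in CD and 1844 CPM in HFD, and they held 5 of 5 and 11 of 13 interferon-high cells. They held 88.4% and 93.9% of the Ly6a UMIs below the level (2584 and 2741 CPM) and 96.1% and 91.6% of those of Rsad2 (279 and 163 CPM, against 15.7 and 13.3 CPM in C1q cells). Ly6a is known as an endothelial marker in mice. In WD, 62 cells led by classical monocyte markers had 4300 CPM of core members and 10 interferon-high cells, with Isg15 at 378 and Cxcl10 at 567 CPM, and 96 neutrophil-led cells 2331 CPM and 7. By contrast 147 NK-led WD cells had 838 CPM, none interferon-high, with Isg15 at 11.3 CPM, and 665 WD cells with no leading list 1241 CPM and 8 interferon-high cells. These groups are ranges of marker UMIs and not named cell types, and the part of the differing cell mix in the members' ratios was not tested.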

How the data were processed

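The authors deposited raw counts of UMIs for each gene and barcode (10x Genomics libraries, per the labels' protocols), written by software of version 3.0.1 (CD, HFD) or 7.2.0 (WD), per the file headers, with no normalization. GRCm38 and Seurat are named per the submitters' processing notes; how cells were filtered, animals pooled and introns counted was not given in the sources used here. CPM were taken over the 30406 genes shared by Ensembl ID. Library totals were 17464149 (CD), 16630481 (HFD) and 79269380 (WD) UMIs, and 3 UMIs corresponded to 0.263, 0.455 and 0.0501 CPM in C1q cells. Doublets were kept, and an alternative removed the highest doublet scores at 0.8% per 1000 cells. Intervals (95%) are exact Poisson for CPM, exact conditional for ratios and Clopper-Pearson for shares. Classes were tested with edgeR 4.0.16 (TMM, filterByExpr, adjusted p under 0.05), checked on simulated data, with DESeq2 1.42.0 as an alternative. Intron lengths came from GENCODE vM21 (GRCm38) and promoters from RefSeq (GRCm38.p6). The members and lists were chosen with earlier results of these data known. All members are reported by role; in each comparison those past 1.5-fold with at least 20 UMIs are named, and genes most like them are the 10 with the highest lowest ratio of interferon-high to other C1q cells. Scores for each thinned cell used 30 core members, which leave out Ifitm3, Bst2, Ly6a, Irf1 and Mx1. Alternatives changed the UMI minimum, mitochondrial limit, C1q level, thinning, score threshold, test, filter, block and the libraries included. Some results are not reported here.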

Additional observations from a re-analysis of the deposited data

Results flagged for a closer look

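Several members went opposite ways in 2 libraries under the same class comparison, with both counting intervals clear of no change; these differences between libraries were not tested, and the libraries differ in diet, depth, software version and barcode list together. In Ccr2 only against Lyve1 only cells, Ifit1 had log2 ratios of 1.67 in WD and -0.51 in CD, and Ifit3 1.85 and -0.66. Oasl1 had 0.58 in WD against -1.69 in CD and -1.70 in HFD. Oasl2 had 0.44 in WD and -0.35 in CD, and Eif2ak2 0.30 and -0.91. Irf1 went the other way, 0.44 in CD and -0.11 in WD.

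In cells below the C1q level against C1q cells, Zbp1 had 0.52 in WD against -1.06 in CD and -1.05 in HFD, and Cxcl10 0.69 against -0.98 and -1.80. Irf1 had -0.65 in WD against 0.45 in CD and 0.73 in HFD, Bst2 -0.90 against 0.22 and 0.29, and Xaf1 -0.17 against 0.86 and 0.86. Ifitm3 had 0.0701 in HFD and -0.152 in WD. The cells below the level were led by endothelial markers in CD and HFD and mostly by no list in WD.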

How the results depend on the processing

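Summed over all members, the log2 ratio of HFD against CD was -0.06; it was -0.08425 at 2000 UMIs, -0.129 at a 5% mitochondrial limit, -0.08523 at a C1q level of 1%, -0.02637 with thinned cells, -0.0895 over core members and 0.0075 less the intron group medians. Of its members 1 was higher under these settings (over core members 2) and with the highest doublet scores or the interferon-high cells removed, and 7 were lower at a C1q level of 1% and 8 without the interferon-high cells. Shares of all genes are not given for these settings, so these counts cannot be called particular to the members. WD against CD was -0.31; it was -0.29 at a 5% limit, -0.17 at a C1q level of 1%, -0.29 without the highest doublet scores and -0.34 with thinned cells, but 0.30 over core members and 0.19 less the intron group medians, where 5 members were lower. WD against HFD was -0.25; it was -0.23 at 2000 UMIs, -0.16 at a 5% limit, -0.08718 at a C1q level of 1%, -0.22 without doublet scores and -0.32 with thinned cells, but 0.39 over core members (3 lower) and 0.23 less the intron group medians. The sign of the WD sums thus differed between all and core members and between both scales. Less the intron group medians, Herc6 (-0.10) and Ifih1 (-0.0048) turned in WD against HFD, and Ifit3 (0.0223), Ifit3b (0.30) and Bst2 (0.26) in WD against CD; Cxcl9 was at 0.0876 in HFD against CD without interferon-high cells. Interferon-high shares in CD, HFD and WD were 3.66%, 2.95% and 3.98% from 5 core UMIs on and 0.174%, 0.0999% and 0.161% from 20 on. Ccr2 against Lyve1 calls, 12, went to 5 with DESeq2 and 0 without the library block, and leaving out 1 library gave 10 to 18, beside 18.4% to 24.1% of all genes. Ifit2 then lay between -0.36 (without WD) and 1.825. Calls below the C1q level, 2, were 4 at 2000 UMIs, at a 5% limit, without the low-count filter and, added after seeing the data, without interferon-high cells; 9 with DESeq2; 0 at a C1q level of 1%, without the highest doublet scores and without the block (edgeR, with 9, 17 and 4 members at an unadjusted p under 0.05); and 0 to 20 with 1 library left out (4 without CD and 7 without HFD at an unadjusted p under 0.05). Without CD, without HFD and without the block, 0 of all genes were called below the C1q level. The share of all genes called there was 7.14% in the main setting, 8.62% at 2000 UMIs and 11.1% at a 5% limit. It was 7.04% without the low-count filter, 7.42% without interferon-high cells, 17.5% with DESeq2 and 33.5% without WD. The causes were not tested. With 1 library per diet no replicate could be left out between diets. No paired analysis was possible because the labels number no replicates across diets; the library block is the only pairing of the class tests. Depth limits single genes in CD and HFD.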
